A study of Homo sapiens with 27 samples.

Results

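The PLAAT phospholipase and acyltransferase family was described across cultures of the 2 invasive lobular carcinoma (ILC) cell lines MM134 and SUM44. The family has 5 members (PLAAT1, PLAAT2, PLAAT3, PLAAT4 and PLAAT5), taken by Ensembl identifier from the 60619 genes of the count table. All 5 were present. The family was chosen by a measured value, the lower PLAAT5 level in the MM134 long-term estrogen-deprived (LTED) variants, so the differences between MM134 LTED and parental cells are given as descriptions, without a test.

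PLAAT proteins are small lipid enzymes that carry a cysteine and a histidine in their active site, in a fold shared with lecithin retinol acyltransferase. They release fatty acids from glycerophospholipids, as phospholipases A1 and A2 do, or move an acyl chain from a phospholipid onto another lipid. When the acceptor is phosphatidylethanolamine, the product is N-acylphosphatidylethanolamine (NAPE), the precursor of the N-acylethanolamines, a family of lipid mediators. PLAAT3, formerly PLA2G16, is the major phospholipase A2 of adipocytes. PLAAT4, formerly RARRES3, was named for its induction by retinoids and is known as a growth suppressor, and PLAAT5, formerly HRASLS5, is an N-acyltransferase best known from testis.

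RNA-sequencing (RNA-Seq) covered 9 groups of 3 libraries. MM134 (MDA-MB-134VI) and SUM44 (SUM44PE) are established human ER+ ILC lines. LTED cells had been kept for months in IMEM with 10% charcoal-stripped serum (CSS), and each variant was derived from its parental line separately. MM134 gave 4 variants, called LTED-A, -B, -D and -E, and SUM44 gave another pair, called LTED-A and -B. MM134 parental, SUM44F parental and SUM44PE parental cells had been grown in their usual media and were deprived of hormone for only the last 3 days before collection. SUM44F is the SUM44PE culture adapted to medium with fetal bovine serum and is the parental line of the SUM44 LTED variants. Replicates were wells of 1 culture, so p-values speak for the spread between these wells and not between derivations.

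Total estimated counts per library ranged from 28583554 to 134882175, with a median of 44018412. Replicates 2 and 3 of SUM44 LTED-A were closer to each other than sampling noise allows and were counted as 1 sample, which left 26 samples. Luminal epithelial markers were high in every group, from 81.0 CPM for GATA3 upward. Markers of other cells were uneven. The T cell marker CD3E reached 0.0571 CPM and the leukocyte marker PTPRC 1.12 CPM in any group. The macrophage marker CD68 reached 14.4 CPM, the endothelial marker PECAM1 25.3 CPM, the collagen genes COL1A1 and COL3A1 32.9 and 45.3 CPM, and VIM, a mesenchymal marker, 137 CPM, which is above the lowest GATA3 level. How these markers relate to the PLAAT levels was not tested. The cultures are bulk samples, in which fewer cells that make an RNA and less of that RNA per cell cannot be told apart.

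The members share the stretch of coding sequence around the catalytic cysteine. It is shown because it is the common feature of the family and because such shared stretches bear on how well reads can be assigned to 1 member. Each line gives 30 bases of the canonical GENCODE v44 transcript on hg38, 5′ to 3′ along the coding strand, with the cysteine codon in capitals.
PLAAT1: cttgtcaacaacTGTgaacattttgtgaca
PLAAT2: accagtgacaacTGCgagcacttcgtgaac
PLAAT3: accagtgagaacTGCgagcactttgtgaat
PLAAT4: gtgagcaggaacTGTgagcactttgtcacc
PLAAT5: attgaagggaacTGTgagcactttgtcaat
The PLAAT1 stretch lies at chr3:193263173-193263202 on the plus strand, in exon 3 of 4. On chromosome 11 the stretches lie at chr11:63558425-63558454 for PLAAT2 (minus strand, exon 3 of 4) and chr11:63590133-63590162 for PLAAT3 (minus strand, exon 4 of 5). That of PLAAT4 is at chr11:63544827-63544856 on the plus strand, in exon 3 of 4. That of PLAAT5 is at chr11:63466143-63466172 on the minus strand, in exon 5 of 6. PLAAT2 and PLAAT3 were identical at 27 of these 30 bases, and PLAAT1 and PLAAT2 at 17. Over whole coding sequences, identity ran from 53.2% between PLAAT1 and PLAAT5 to 75.7% between PLAAT2 and PLAAT3. The coding sequence of PLAAT5 was the longest at 807 bases, against 486 for PLAAT2 and PLAAT3, 492 for PLAAT4 and 504 for PLAAT1.

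PLAAT1 (ENSG00000127252) lies alone at chr3:193241128-193277738. The other members form a cluster of 155480 bases on chromosome 11, in the order PLAAT5 (ENSG00000168004, chr11:63461404-63491194), PLAAT4 (ENSG00000133321, chr11:63536808-63546462), PLAAT2 (ENSG00000133328, chr11:63552770-63563379) and PLAAT3 (ENSG00000176485, chr11:63573195-63616883). PLAAT4 is on the plus strand and the other 3 are on the minus strand. Gaps of 45613, 6307 and 9815 bases separate them in that order. The strand setting of the counting is not given in the sources used here, so reads from genes that overlap a member may be counted as its own. The overlaps given here are of whole genes, and whether exons overlap was not examined. ATP13A5 overlaps PLAAT1 by 2950 bases on the other strand and reached a group mean of 1.58 CPM, a level similar to that of PLAAT1 itself. The genes that overlap PLAAT3 and PLAAT5 stayed at or below 0.131 CPM.

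PLAAT5 was present in MM134 parental cells and almost absent in every other group. Its levels were 58.7, 57.0 and 54.6 CPM in the 3 MM134 parental samples, from 2054, 2113 and 1686 counts. The 12 MM134 LTED libraries held 3 to 31 counts each. No LTED sample exceeded 0.511 CPM, and the parental samples stood apart from all of them. The PLAAT5 group means were 0.240 CPM in LTED-A, 0.234 CPM in LTED-B, 0.168 CPM in LTED-E and 0.124 CPM in LTED-D.

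As a description of the difference that chose the family, the log2 fold change of PLAAT5 against MM134 parental cells was −7.79 ± 0.19 (SE) in LTED-A, −7.87 ± 0.21 in LTED-B, −8.86 ± 0.23 in LTED-D and −8.39 ± 0.21 in LTED-E. These correspond to levels 222-fold, 235-fold, 464-fold and 335-fold lower. The rule set no threshold on these values. The 4 contrasts share the 3 parental samples and are not independent of each other.

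PLAAT5 passed the filter on low counts in the MM134 fit through its parental counts, so differences among the LTED variants are given as values without a test. In LTED-B, replicate 1 had 22 counts (0.511 CPM) while replicates 2 and 3 had 5 and 3 counts (0.118 and 0.0746 CPM). The largest difference between variants was a log2 fold change of 1.06 ± 0.54 for LTED-A against LTED-D, with a 95% interval from −0.07 to 2.20. For LTED-B against LTED-D the fitted interval ran from −0.27 to 2.24. No conclusion is drawn from these intervals, because the LTED counts were few and the gene entered the fit through the parental samples.

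In SUM44 cells PLAAT5 was near the limit of detection in all 4 groups. The 3 SUM44F libraries had 3, 9 and 12 counts, the highest of which came from the deepest library. SUM44PE libraries had 2, 1 and 0 counts, SUM44 LTED-A had 0, 4 and 4, and SUM44 LTED-B had 1, 4 and 6. PLAAT5 did not pass the filter on low counts in the SUM44 fits. Without that filter, its log2 fold change against SUM44F was −2.29 in LTED-A (adjusted p = 0.0803, edgeR) and −0.90 in LTED-B (adjusted p = 0.436, edgeR), so no difference was detectable. Between the parental lines, the PLAAT5 level in MM134 was 436-fold that in SUM44F, given as a description because the MM134 parental samples chose the gene.

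**Figure D1:**
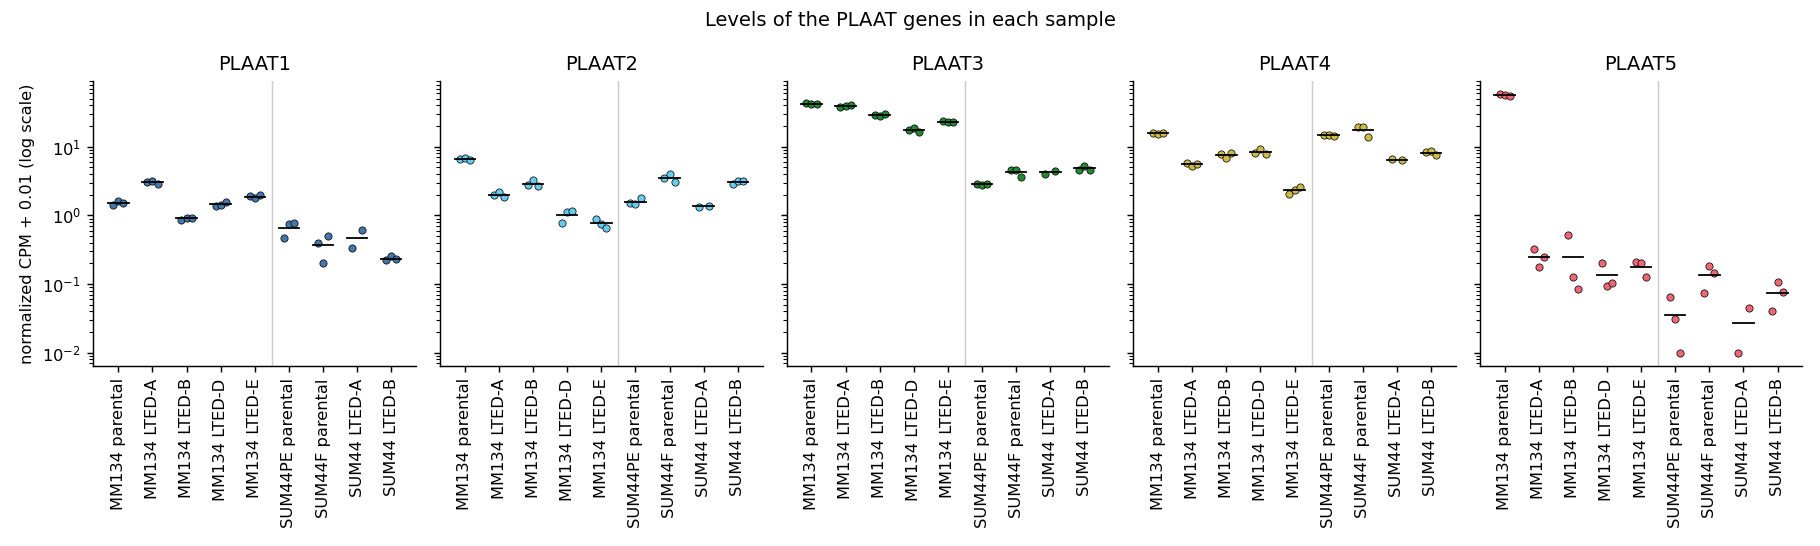
Normalized CPM (plus 0.01, on a log axis) of each PLAAT gene in each of the 26 samples, 1 point a sample, with horizontal lines at group means and a grey line between MM134 and SUM44 groups. PLAAT5 stood at 54.6 to 58.7 CPM in the MM134 parental samples and at or below 0.511 CPM in all others. The means of PLAAT2 and PLAAT4 were lower in every LTED group than in its own parental group.

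PLAAT4 was lower by more than 1.5-fold in all LTED variants of both cell lines. PLAAT2 was also lower in all of them, but only by −0.21 on the log2 scale in SUM44 LTED-B, which overlapped SUM44F. The PLAAT4 levels of the MM134 parental samples were 16.1, 15.4 and 15.9 CPM. LTED-A had 5.80, 5.26 and 5.52 CPM, LTED-B 7.96, 6.94 and 8.18 CPM, LTED-D 8.20, 9.24 and 7.90 CPM, and LTED-E 2.05, 2.31 and 2.60 CPM. No MM134 LTED sample reached the lowest parental sample. Of all genes tested, 53.6% to 58.7% did not overlap between a variant and parental cells, in either direction. The log2 fold changes, as a description, were −1.52 ± 0.08 in LTED-A, −1.03 ± 0.08 in LTED-B, −0.89 ± 0.08 in LTED-D and −2.75 ± 0.09 in LTED-E.

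In SUM44, where the contrasts had no part in choosing the family, PLAAT4 fell in both variants. SUM44F samples stood at 19.4, 19.3 and 14.1 CPM. The 2 samples of SUM44 LTED-A had 6.55 and 6.33 CPM, and SUM44 LTED-B had 8.28, 8.70 and 7.68 CPM. The LTED groups did not overlap SUM44F, although replicate 3 of SUM44F was well below the other parental samples. Of all genes tested, 52.9% did not overlap between LTED-A and SUM44F and 59.7% between LTED-B and SUM44F. PLAAT4 was 2.73-fold lower in SUM44 LTED-A (log2 fold change −1.45 ± 0.15, adjusted p = 3.03e-05, edgeR) and 2.14-fold lower in SUM44 LTED-B (−1.10 ± 0.13, adjusted p = 5.97e-05, edgeR). With replicate 1 of SUM44 LTED-A left out, which leaves that variant 1 sample assumed to vary like the other groups, the fall in LTED-A was −1.43 with an adjusted p of 0.00105 (edgeR) and missed the threshold of 0.001. SUM44 LTED-A and LTED-B did not differ past the threshold (−0.35 ± 0.15, adjusted p = 0.121, edgeR).

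PLAAT4 separated MM134 LTED-E from the other MM134 variants. It was 2.35-fold higher in LTED-A than in LTED-E (log2 fold change 1.23 ± 0.09, adjusted p = 5.46e-09, edgeR), and 3.28-fold and 3.62-fold higher in LTED-B and LTED-D (adjusted p = 4.57e-11 and 1.23e-11, edgeR). LTED-B and LTED-D did not differ past the threshold, with a log2 fold change of −0.14 and a 95% interval from −0.32 to 0.04. LTED-A was 1.54-fold lower than LTED-D (−0.62 ± 0.08, adjusted p = 5.89e-06, edgeR). Without replicate 2 of LTED-D that value was −0.55, under the fold threshold of 1.5.

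The PLAAT4 levels of the parental lines were close. The log2 fold change of MM134 parental against SUM44F was −0.15 ± 0.10 (adjusted p = 0.185, edgeR), with a 95% interval from −0.36 to 0.05. SUM44PE samples had 14.9, 14.9 and 14.5 CPM and did not differ from SUM44F past the threshold (−0.26 ± 0.11, adjusted p = 0.131, edgeR). In the order of group means, SUM44F, MM134 parental and SUM44PE came first at 17.6, 15.8 and 14.8 CPM. All 6 LTED groups followed, from 8.44 CPM in MM134 LTED-D to 2.32 CPM in MM134 LTED-E.

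PLAAT2, an N-acyltransferase and phospholipase close in sequence to PLAAT3, was also lower in all MM134 LTED variants. MM134 parental samples had 6.61, 6.91 and 6.42 CPM. LTED-B had 2.74, 3.26 and 2.66 CPM, LTED-A 1.95, 2.15 and 1.84 CPM, LTED-D 0.775, 1.09 and 1.14 CPM, and LTED-E 0.889, 0.741 and 0.641 CPM. All LTED samples were below all parental samples, where 53.6% to 58.7% of all genes tested did not overlap in either direction. The log2 fold changes against parental cells were −1.20 ± 0.12 in LTED-B, −1.75 ± 0.12 in LTED-A, −2.69 ± 0.14 in LTED-D and −3.13 ± 0.14 in LTED-E.

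By the call, PLAAT2 was higher in LTED-B and LTED-A than in LTED-D and LTED-E, although the group means were graded (2.89, 1.98, 1.00 and 0.757 CPM in that order). LTED-B was 2.82-fold above LTED-D (adjusted p = 1.58e-07, edgeR) and 3.82-fold above LTED-E (1.93 ± 0.15, adjusted p = 4.71e-09, edgeR). LTED-A was 1.92-fold above LTED-D and 2.60-fold above LTED-E (adjusted p = 3.70e-05 and 5.17e-07, edgeR). LTED-A against LTED-B gave −0.56 ± 0.13, or 1.47-fold (adjusted p = 0.00169, edgeR), and LTED-D against LTED-E gave 0.44 ± 0.17 (adjusted p = 0.0496, edgeR), neither past the threshold. The samples of LTED-A and LTED-B did not overlap, as was so for 43.7% of all genes tested in either direction.

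In SUM44 cells PLAAT2 differed between the variants. SUM44F samples had 3.52, 4.04 and 3.04 CPM, SUM44 LTED-A had 1.33 and 1.37 CPM, and SUM44 LTED-B had 2.86, 3.11 and 3.17 CPM. LTED-A lay below both other groups, while LTED-B overlapped SUM44F. Of all genes tested, 52.9% did not overlap between LTED-A and SUM44F and 49.8% between LTED-A and LTED-B. PLAAT2 was 2.60-fold lower in LTED-A than in SUM44F (log2 fold change −1.38 ± 0.17, adjusted p = 0.000113, edgeR) and did not change past the threshold in LTED-B (−0.21 ± 0.15, adjusted p = 0.266, edgeR). The difference between LTED-A and LTED-B was −1.17 ± 0.17 (adjusted p = 0.000621, edgeR). Both of these calls rested on few samples: the first was lost without either sample of LTED-A (−1.32 and −1.40, adjusted p = 0.00183 and 0.00133, edgeR) and with only both compared groups in the fit (−1.37, adjusted p = 0.00151, edgeR). The second was lost when any 1 sample of either variant was left out, with log2 fold changes from −1.21 to −1.13 that kept its direction, and also with the replicate number as a block (−1.22, adjusted p = 0.00197, edgeR) and with only both variants in the fit (−1.14, adjusted p = 0.00105, edgeR).

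SUM44PE samples had 1.52, 1.46 and 1.76 CPM of PLAAT2, all below the SUM44F samples, as was so for 20.4% of all genes tested. PLAAT2 was 2.25-fold lower in SUM44PE than in SUM44F (−1.17 ± 0.14, adjusted p = 6.68e-05, edgeR). The PLAAT2 level thus differed between both parental cultures of the same line, each deprived of hormone for the last 3 days before collection. MM134 parental cells had 1.89-fold more PLAAT2 than SUM44F (0.92 ± 0.13, adjusted p = 8.21e-07, edgeR).

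PLAAT3, the member with most RNA per length in the MM134 LTED variants, marked the cell line more than the LTED state. MM134 parental samples had 42.8, 41.9 and 42.1 CPM and SUM44F samples had 4.58, 4.65 and 3.62 CPM. PLAAT3 was 9.98-fold higher in MM134 parental than in SUM44F cells (log2 fold change 3.32 ± 0.07, adjusted p = 7.73e-22, edgeR). Every MM134 sample, LTED included, was above every SUM44 sample: the lowest MM134 value was 16.6 CPM and the highest SUM44 value 5.27 CPM. PLAAT1 showed the same separation, with 0.859 CPM as the lowest MM134 value and 0.756 CPM as the highest SUM44 value. Between the MM134 parental and SUM44F samples alone, 66.3% of all genes tested did not overlap in either direction, and 32.3% were higher in MM134. The share of genes that separate all samples of both lines was not computed.

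Within MM134, PLAAT3 levels formed 5 groups that did not overlap. Between pairs of these groups, 43.7% to 58.7% of all genes tested did not overlap either. After the parental samples came LTED-A with 37.9, 39.3 and 40.0 CPM, then LTED-B with 29.4, 28.0 and 29.5 CPM, LTED-E with 23.7, 22.9 and 22.9 CPM, and LTED-D with 17.7, 18.7 and 16.6 CPM. As a description, the log2 fold change against parental cells was −0.12 ± 0.04 in LTED-A, −0.54 ± 0.04 in LTED-B, −0.86 ± 0.04 in LTED-E and −1.25 ± 0.04 in LTED-D. Between variants, the largest difference was LTED-A against LTED-D, 2.19-fold (1.13 ± 0.04, adjusted p = 1.49e-13, edgeR). LTED-A was 1.67-fold above LTED-E and LTED-B was 1.63-fold above LTED-D (adjusted p = 4.51e-11 and 2.74e-10, edgeR). The 3 remaining pairs had adjusted p-values of at most 5.26e-06 (edgeR) but differed by less than 1.5-fold.

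In SUM44 cells PLAAT3 did not change past the threshold in either variant. SUM44 LTED-A had 4.004 and 4.47 CPM and SUM44 LTED-B had 4.61, 5.27 and 4.65 CPM, and both overlapped SUM44F. The log2 fold change was −0.01 in LTED-A, with a 95% interval from −0.35 to 0.33, and 0.18 in LTED-B, with an interval from −0.13 to 0.48. SUM44PE was lower than SUM44F by 1.53-fold (−0.61 ± 0.13, adjusted p = 0.00397, edgeR) and did not meet the adjusted p of 0.001. Its samples (2.85, 2.72 and 2.87 CPM) did not overlap those of SUM44F, as was so for 40.0% of all genes tested.

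PLAAT1, a member with phospholipase and acyltransferase activity encoded on another chromosome, was the only member higher than parental cells by the 1.5-fold criterion in any LTED variant. MM134 parental samples had 1.43, 1.59 and 1.49 CPM, LTED-A had 3.03, 3.14 and 2.88 CPM, and LTED-B had 0.859, 0.897 and 0.920 CPM. LTED-A was above and LTED-B below the parental samples, with log2 fold changes of 1.00 ± 0.10 and −0.75 ± 0.12 as a description. LTED-E was slightly above (1.90, 1.78 and 1.94 CPM, 0.33 ± 0.11), and LTED-D overlapped parental cells (1.36, 1.43 and 1.58 CPM, −0.03 ± 0.12).

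Tested between variants, PLAAT1 was 3.35-fold higher in LTED-A than in LTED-B (log2 fold change 1.75 ± 0.11, adjusted p = 3.99e-10, edgeR). It was also higher in LTED-A than in LTED-D by 2.04-fold and in LTED-E by 1.59-fold (adjusted p = 1.93e-07 and 2.13e-05, edgeR). LTED-B was 2.11-fold below LTED-E (−1.08 ± 0.12, adjusted p = 5.08e-07, edgeR). It was 1.65-fold below LTED-D (−0.72 ± 0.12, adjusted p = 0.000190, edgeR), a call lost without LTED-B replicate 1 or 2 or LTED-D replicate 3 (−0.70, −0.73 and −0.66, adjusted p = 0.00159, 0.00103 and 0.00552, edgeR). It was also lost with DESeq2 (−0.74, adjusted p = 0.00309) and with only LTED-B and LTED-D in the fit (−0.71, adjusted p = 0.00436, edgeR). In SUM44 groups PLAAT1 was at or below 0.756 CPM in every sample and no difference was called. The log2 fold change was 0.40 in SUM44 LTED-A, with a 95% interval from −0.50 to 1.30, and −0.70 in SUM44 LTED-B, from −1.61 to 0.20. MM134 parental cells had 4.02-fold more PLAAT1 than SUM44F (2.01 ± 0.23, adjusted p = 2.92e-08, edgeR).

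**Figure D2:**
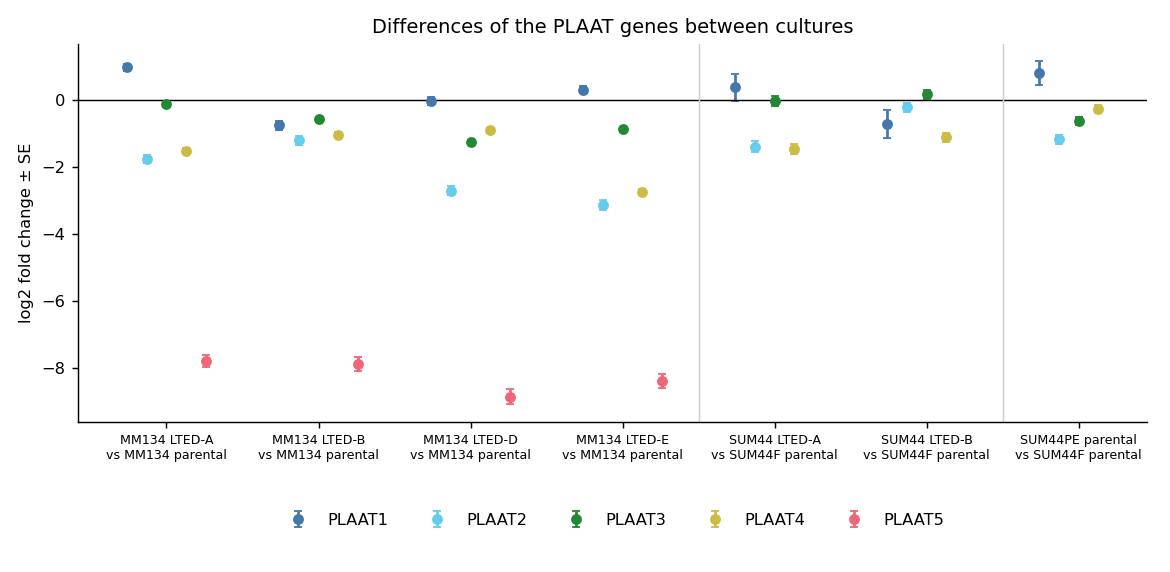
Log2 fold change (points) with its standard error (bars) of each PLAAT gene in 7 comparisons, named under the axis, from the edgeR fits. PLAAT2 and PLAAT4 lay below 0 in all 6 LTED comparisons and PLAAT1 on both sides of 0. PLAAT5 is drawn for MM134 only, because it did not pass the filter on low counts in SUM44.

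Counted over members, a gene was called where its fold change exceeded 1.5 and its adjusted p was below 0.001 (edgeR). Against MM134 parental cells, 1 member was higher and 3 lower in LTED-A, and 0 higher and 4 lower in each of the other variants. Of all 26061 genes tested, 20.3%, 15.9%, 17.6% and 19.0% were called in these contrasts (variants A, B, D and E) in either direction. These contrasts chose the family, so nothing is read from the counts of members. The call of PLAAT1 as lower in LTED-B was lost with DESeq2, with only both compared groups in the fit and without MM134 parental replicate 2. Its log2 fold changes there were −0.76, −0.76 and −0.71.

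Between the MM134 variants, the number of calls among the 4 members other than PLAAT5 was unequal. In LTED-A against LTED-E 4 were called, all higher in LTED-A, where 7.84% of all genes were called. In LTED-A against LTED-D 4 were called (9.88% of all genes), 3 higher and PLAAT4 lower in LTED-A. LTED-B differed from LTED-D in 3 members (7.40% of all genes) and from LTED-E in 3 members (9.78%). Only 1 member was called in LTED-A against LTED-B, PLAAT1 (7.06% of all genes), and 1 in LTED-D against LTED-E, PLAAT4 (11.6%).

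In SUM44, 4 members were tested. SUM44 LTED-A against SUM44F gave 2 calls, both lower (PLAAT2 and PLAAT4), where 13.7% of all genes were called. SUM44 LTED-B gave 1, PLAAT4 (17.3% of all genes). PLAAT2 was the 1 call both in LTED-A against LTED-B (7.42% of all genes) and in SUM44PE against SUM44F (5.57%). Between MM134 parental and SUM44F cells PLAAT1, PLAAT2 and PLAAT3 were called higher in MM134 and PLAAT4 was not called, where 38.1% of all genes were called. PLAAT5 is left out of that comparison because the MM134 parental samples chose it.

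To compare levels between members, CPM were divided by the length of the canonical transcript in kb. The summed level of the family was 89.4 CPM per kb in MM134 parental cells and ranged from 27.7 in LTED-E to 49.5 in LTED-A. Parental and LTED samples did not overlap. PLAAT5, whose fall in MM134 LTED chose the family, is part of this sum, so the lower sum there was partly set by that choice. In SUM44 the sum was 32.4 CPM per kb in SUM44F, 24.9 in SUM44PE, 14.8 in SUM44 LTED-A and 19.7 in SUM44 LTED-B. The SUM44F samples ran from 26.6 to 35.6 CPM per kb, above all SUM44 LTED samples.

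The makeup of that sum differed between the lines. PLAAT3 gave 43.8% to 44.3% of the sum in the MM134 parental samples and means of 53.9% (LTED-D) to 78.0% (LTED-E) in the variants. Its larger share there also takes in the fall of PLAAT5, which chose the family. PLAAT3 itself was lower in the variants, from 39.3 CPM per kb in parental cells. MM134 variants A, B, D and E had 36.4, 26.9, 16.4 and 21.6 CPM per kb. In SUM44F PLAAT4 gave 71.5% and PLAAT3 only 12.3%. In SUM44 variants A and B the share of PLAAT4 was 57.6% and 54.9% and that of PLAAT3 26.7% and 22.8%. PLAAT5 gave 20.9% of the sum in MM134 parental cells and at most 0.200% in the group means of the variants. This share depends on the transcript: with the length of the shorter PLAAT5 transcript (1166 bases rather than 3042), PLAAT5 was 40.8% of the sum in MM134 parental cells and the first member there, ahead of PLAAT3 at 32.9%. Which PLAAT5 transcript the cells make was not tested.

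**Figure D3:**
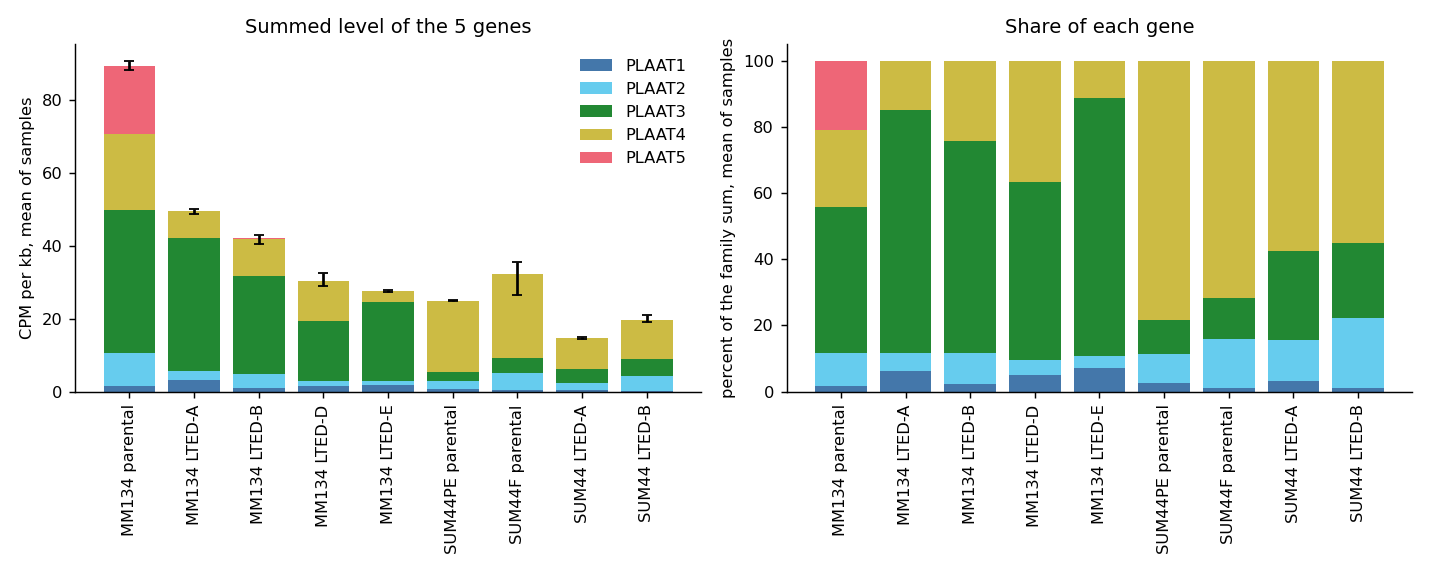
Left, mean CPM per kb of canonical transcript of the 5 PLAAT genes, stacked by group, with bars from the lowest to the highest sample of the summed level. Right, the mean percent of that sum given by each gene, in which PLAAT3 is the largest part of the MM134 bars and PLAAT4 of the SUM44 bars.

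The cluster on chromosome 11 was set against the other genes near it. Within 500 kb of the span of PLAAT2 to PLAAT5, 35 other genes are annotated and 16 were tested in the MM134 and SUM44 fits. Their median log2 fold change was −0.04, 0.08, −0.00 and −0.00 in MM134 variants A, B, D and E, with medians over all genes from −0.03 to 0.02. In SUM44 variants A and B it was 0.20 and 0.15, with −0.06 and −0.09 over all genes. These medians depended on the window. In MM134 LTED-A the median was −0.13 within 250 kb and 0.10 within 1000 kb. Within 1000 kb it was 0.17 in MM134 LTED-B, 0.06 in MM134 LTED-D and 0.27 in SUM44 LTED-B.

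The nearest tested genes on either side of the cluster were not called in any variant. ATL3, a tubule-shaping protein of the endoplasmic reticulum 7204 bases from PLAAT3, had log2 fold changes of 0.13, 0.17, 0.10 and 0.48 in the 4 MM134 variants and 0.34 and 0.36 in the SUM44 variants, none past the 1.5-fold criterion. On the PLAAT5 side the nearest tested gene was the transporter SLC22A9, at most 0.917 CPM in any group, with log2 fold changes from −1.45 to −0.52 in the MM134 variants and of −0.75 and −0.77 in the SUM44 variants (−1.23 ± 0.55 in MM134 LTED-A, for example). No protein-coding gene inside the span was tested: LGALS12, between PLAAT5 and PLAAT4, was at or below 0.0603 CPM in every group. RCOR2, 294347 bases away, was lower (−1.91 to −1.14) and FLRT1, 419048 bases away, was higher (2.01 to 3.85) by the call in all 4 MM134 variants. They are named here after their values were seen.

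**Figure D4:**
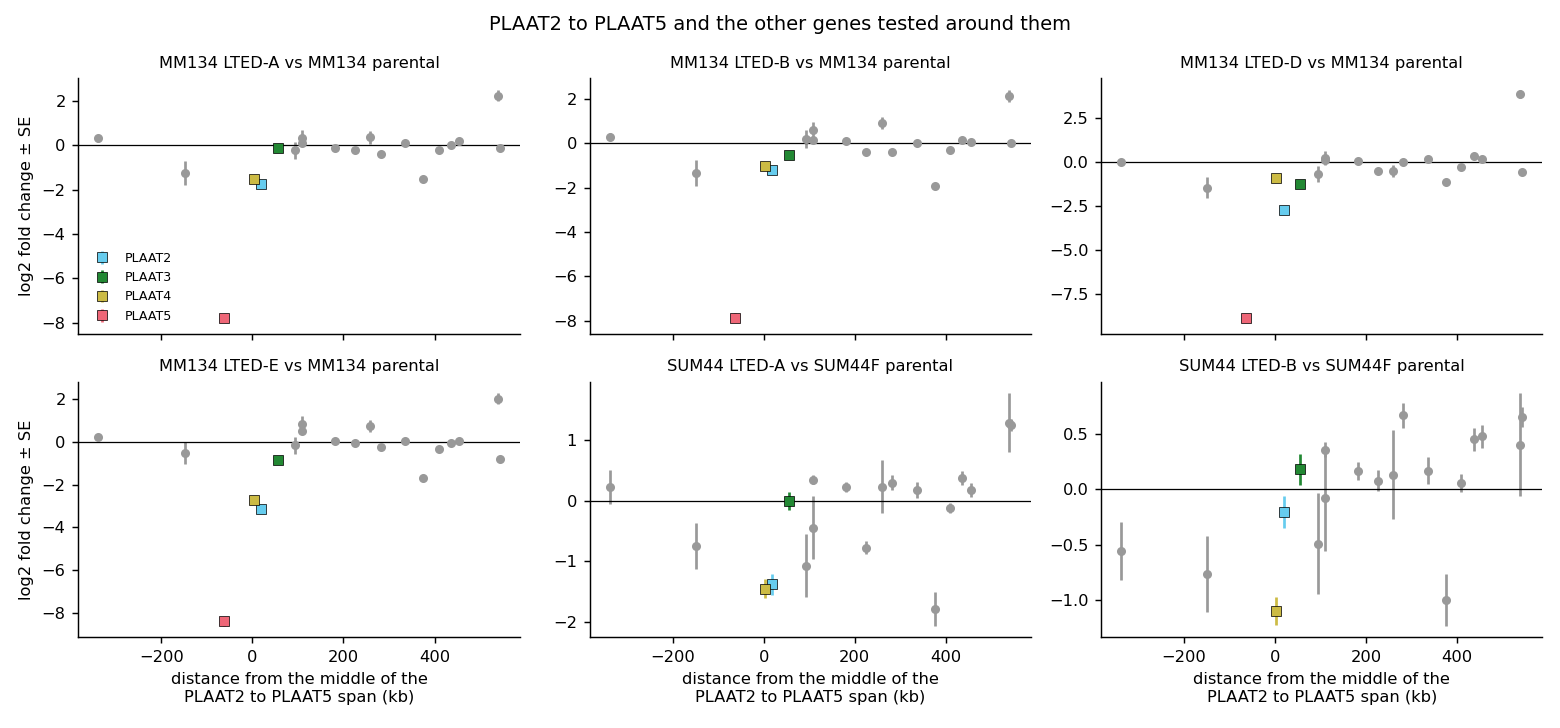
Log2 fold change with its standard error for PLAAT2 to PLAAT5 (coloured squares) and the other genes tested around them (grey points), by distance of the gene's middle from the middle of the cluster in kb. Each panel is 1 LTED variant against its parental line, with its own vertical scale. In the MM134 panels PLAAT5 lies between −7.79 and −8.86, and the nearest grey point on its outer side, SLC22A9, between −1.45 and −0.52.

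Promoter sequence was available for PLAAT1 and PLAAT3 (RefSeq, GRCh38.p14, 250 bases before to 50 after the start). Both strands were searched for the estrogen response element (GGTCA and TGACC, 3 bases apart), the nuclear receptor half-site (AGGTCA), an interferon-stimulated response element core (TTTC and TTTC, 2 bases apart) and a sterol regulatory element (TCACNCCAC). PLAAT3 held 1 half-site match, a match that 13.9% of 27305 promoters hold, and no other match. PLAAT1 held none of the 4. The estrogen response element contains 5 of the 6 letters of the half-site, so both searches can hit the same bases.

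Genes with the most similar pattern over the 26 samples are given as a description, from Pearson's r of log2(CPM + 1) among 19609 genes. The samples differ in cell line, culture and depth, so r also takes in these differences. For PLAAT5 they were BRINP1 (r = 0.998), MARCHF4 (0.997), NEUROD4 (0.996), MIR7-3HG (0.995) and ENSG00000271981 (0.995). This likeness rests on the single group in which PLAAT5 was present: by Spearman's rho, 0 of these 5 were among the 5 most alike. For PLAAT4 they included ERVE-1 (0.947), NLRP1 (0.940), IDS (0.927) and RBM43 (0.911). PLAAT3 was most like CILP2 (0.987), DHDDS (0.986), CRYBG2 (0.985), URB1-AS1 (0.985) and BOLA3-DT (0.984). PLAAT2 was most like ZNF250, TUBB3, INPP5B, CLIP4 and MANEAL (0.925 to 0.877), and PLAAT1 like SAR1B, PCDH20, IER5L, PFKFB2 and DCLK1 (0.967 to 0.937). Among the members themselves, r was highest for PLAAT1 with PLAAT3 (0.816) and lowest for PLAAT1 with PLAAT4 (−0.479).

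Other genes of the pathways around the family were read from 6 lists, whose counts of calls stand beside the shares of all genes. In MM134 variants A, B, D and E 10.5%, 8.11%, 9.63% and 8.71% of all genes were called higher and 9.82%, 7.75%, 7.95% and 10.3% lower. In SUM44 variants A and B 6.39% and 8.69% were called higher and 7.28% and 8.57% lower.

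Of 9 genes that make or break down NAPE and N-acylethanolamines, all were tested. In MM134 variants A, B, D and E 3, 3, 4 and 3 of them were higher and 1, 0, 0 and 1 lower, beside 8.11% to 10.5% of all genes higher and 7.75% to 10.3% lower, with list medians of 0.19, 0.29, 0.46 and 0.22. PLA2G4E, a calcium-dependent N-acyltransferase that makes NAPE as PLAAT5 does, rose in all 4 variants (log2 fold changes 3.00, 1.62, 1.97 and 1.78), from a group mean low of 0.236 CPM. GDPD3, a lysophospholipase D, also rose in all 4 (1.83, 2.11, 2.38 and 1.87). The group means were at most 2.05 CPM in any group for PLA2G4E and 20.6 CPM for GDPD3. In SUM44, GDPD3 rose in LTED-B only by the call (1.29 ± 0.13, against 0.42 ± 0.14 in LTED-A), and the list had 0 higher and 1 lower in LTED-A and 1 higher and 0 lower in LTED-B, with medians of −0.18 and −0.03.

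Of 20 other phospholipases A2, 14 were tested. In the 4 MM134 variants 4, 3, 4 and 2 were higher and 0, 1, 2 and 1 lower, beside 8.11% to 10.5% and 7.75% to 10.3% of all genes, with medians of 0.24, 0.22, 0.20 and 0.05. In SUM44 variants A and B 1 and 0 were higher (6.39% and 8.69% of all genes) and 4 and 5 lower (7.28% and 8.57%), with medians of −0.32 and −0.20. PLA2G2A, a secreted phospholipase A2, rose in MM134 (6.46, 4.73, 3.68 and 5.11) and fell in SUM44 (−3.60 and −4.88). PLA2G4C, a cytosolic phospholipase A2, fell in LTED-B, LTED-D and LTED-E (−0.71, −0.60 and −1.10) and in both SUM44 variants (−1.15 and −1.08), with −0.26 ± 0.08 in MM134 LTED-A.

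The related LRAT-type proteins numbered 3, all tested. LRATD1 fell in MM134 LTED-B (−1.83) and rose in LTED-E (0.99) and in SUM44 LTED-B (1.61), and no other member of this list was called against parental cells. List medians were 0.03, −0.50, −0.42 and 0.22 in MM134 and −0.16 and 0.10 in SUM44.

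Of 16 peroxisome biogenesis genes, listed because PLAAT3 is known to act on peroxisomes, all were tested. In MM134 2, 2, 4 and 2 rose, beside 10.5%, 8.11%, 9.63% and 8.71% of all genes, and 0 fell, with medians of 0.24, 0.20, 0.21 and 0.17, against 2 and 3 that rose and 3 and 1 that fell in SUM44 variants A and B (medians −0.08 and 0.16). PEX11A, a peroxisome division factor, rose by 1.55, 1.30, 1.27 and 1.21 and PEX7, an import receptor, by 0.82, 0.64, 0.67 and 0.64 in the MM134 variants. In SUM44, PEX11A fell in LTED-A (−0.84, with −0.45 ± 0.08 in LTED-B) and PEX7 rose in LTED-B (1.52, with 0.03 ± 0.11 in LTED-A).

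Because PLAAT4 is known as a retinoid- and interferon-inducible gene, both responses were set beside it. Of 16 genes of retinoic acid handling and response, 13 were tested in MM134 and 14 in SUM44. In MM134 1 rose in each variant, ALDH1A3, and 3, 4, 2 and 5 fell, beside 9.82%, 7.75%, 7.95% and 10.3% of all genes (medians −0.23, −0.47, −0.32 and −0.24). In SUM44 1 and 2 rose, beside 6.39% and 8.69% of all genes, and 0 fell (medians −0.54 and −0.49).

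Of 8 interferon response genes, 5 rose and 1 fell in MM134 LTED-A, 2 rose and 1 fell in both LTED-B and LTED-D, and 0 rose and 1 fell in LTED-E, where 8.11% to 10.5% of all genes were called higher and 7.75% to 10.3% lower. The list medians were 1.32, −0.18, −0.08 and −0.27. In both SUM44 variants 0 rose and 5 fell (7.28% and 8.57% of all genes), with medians of −1.30 and −1.73. IFI6, an interferon-stimulated gene, had 2.38, 0.89, 0.68 and −0.56 in the MM134 variants and −3.49 and −3.09 in SUM44. IRF9, a subunit of the interferon-stimulated transcription factor complex, had 0.66, −0.20, −1.18 and −1.38 in MM134 and −1.54 and −2.15 in SUM44. The part of either response in the PLAAT4 level was not tested.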

How the data were processed

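RNA-Seq of MM134 and SUM44 parental and LTED cells was analysed. The authors estimated counts per gene with Salmon 0.6.0 (hg38, Ensembl annotation), and the deposited table holds these estimated counts, which are not whole numbers, for 60619 genes, of which 56434 are in GENCODE v44. The strand setting is not given in the sources used here. Reads that fit several similar genes are shared out by such a model, which can move counts between members of a gene family.

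Counts were rounded. SUM44 LTED-A replicates 2 and 3 (chi-square per degree of freedom 0.312, against 2.35 to 58.1 in the 26 other replicate pairs) were averaged to 1 sample. The highest values were 58.1 and 56.6, for SUM44 LTED-A replicate 1 against replicates 2 and 3. Next came 42.8 and 39.2, for SUM44F replicate 3 against replicates 1 and 2. Both groups enter the SUM44 tests of PLAAT2 and PLAAT4. After filterByExpr and TMM scaling, edgeR 4.0.16 in R 4.3.3 gave two-sided quasi-likelihood F-tests, with p-values adjusted by Benjamini-Hochberg over all genes tested. The fits were all MM134 groups (26061 genes), SUM44F with the SUM44 LTED variants (26834), these with SUM44PE (27457), and all groups (29608). A gene was called above a fold change of 1.5 with an adjusted p under 0.001, the study's thresholds. Values after ± are standard errors, and intervals are 95% intervals of the log2 fold change. CPM are normalized by TMM over all 26 samples. The steps were tested on simulated data.

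Members and lists were chosen with earlier results of these data known. All members were named, with the 5 genes most like each, 2 genes of each list called in most LTED contrasts, and the nearest tested genes beside the cluster. Some genes that this rule names are not reported here. Gene positions and coding sequences came from GENCODE v44, and promoters from RefSeq. Coding sequences were aligned (biopython 1.88) in place of the planned comparison of proteins. Chromosome 11 neighbours were tested genes within 500 kb of the cluster. Alternatives were windows of 250 and 1000 kb, other filters, size factors, thresholds, DESeq2 1.42.0, a replicate block, fits of the groups compared alone, and leaving out each sample.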

Additional observations from a re-analysis of the deposited data

Results flagged for a closer look

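Of 11 genes named from the lists around the PLAAT family, 3 had every sample of the MM134 LTED variants on one side of all MM134 parental samples and every sample of the SUM44 LTED variants on the opposite side of all SUM44F samples. PLA2G2A averaged 42.2 times its parental level in the 12 MM134 LTED samples (0.235 CPM in parental cells, 9.93 CPM in LTED) and 0.0532 times in the 5 SUM44 LTED samples (28.0 CPM in SUM44F, 1.49 CPM in LTED). ALDH1A3 averaged 30.7 times its parental level in MM134 LTED samples and 0.0681 times in SUM44 LTED samples, at levels of at most 2.07 CPM. Both ratios rest on means near the limit of detection, 0.0311 CPM in MM134 parental and 0.0278 CPM in SUM44 LTED samples. PEX11A averaged 2.52 times its parental level in MM134 LTED samples and 0.662 times in SUM44 LTED samples. Of the 24223 genes tested in both lines, 5.77% showed this pattern in either direction, and the 11 genes had been named because they were called in most LTED contrasts, so their share is no finding. ALDH1A3 was not called in either SUM44 variant (adjusted p = 0.00286 and 0.00258, edgeR), and PEX11A was not called in SUM44 LTED-B, where its log2 fold change of −0.45 was under the fold threshold. The difference between the cell lines was not tested for these genes. No PLAAT member moved in opposite directions in this way.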

How the results depend on the processing

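Of the counts of called members under the alternatives, 211 stayed within 1.5 times the reported count and 17 did not. With no minimum fold change, 3 members were called in MM134 LTED-A against LTED-B and 2 in LTED-D against LTED-E (1 each as reported). With a fold change above 2, 2 were called in LTED-A against LTED-D and in LTED-A against LTED-E (4 each as reported) and 1 in LTED-B against LTED-D (3 as reported). With only both compared groups in the fit, the SUM44 LTED-A count against SUM44F was 1 and that of SUM44 LTED-A against LTED-B was 0. An adjusted p under 0.05 gave 2 for SUM44PE against SUM44F, and at least 10 counts in every sample left 2 for MM134 parental against SUM44F (4 with PLAAT5 counted), because fewer members were tested. When samples were left out, the count ran from 0 to 2 for SUM44 LTED-A against SUM44F, was 0 for SUM44 LTED-A against LTED-B, and ran from 3 to 4 for MM134 LTED-A against LTED-D, from 2 to 3 for LTED-B against LTED-D and from 3 to 4 for LTED-B against parental cells.

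The direction of a log2 fold change turned in 16 instances, all for values that were not called. PLAAT3 in SUM44 LTED-A against SUM44F became 0.00850 without the filter, 0.0318 with RLE size factors, 0.0402 with DESeq2, 0.0398 with the near-identical libraries kept separate and 0.00562 with both groups alone, and ran from −0.0955 to 0.112 with a sample left out. With samples left out, PLAAT1 ran from −0.194 to 0.769 in that contrast and from −0.0908 to 0.0184 in MM134 LTED-D against parental cells. PLAAT5 ran from −0.326 to 1.36 for LTED-A against LTED-B, from −0.301 to 1.39 for LTED-B against LTED-D and from −0.767 to 0.916 for LTED-B against LTED-E. The values of −0.301 and −0.767 came without LTED-B replicate 1 and that of −0.326 without LTED-B replicate 3. The cause of these shifts was not tested.

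Correlations between the deviations of same-numbered replicates ran from −0.11 to 0.08 in MM134. For SUM44 replicates 1 and 2 they ran from −0.07 to 0.07. For SUM44 replicate 3 they were 0.18 (LTED-A against SUM44F), 0.19 (LTED-B against SUM44F) and 0.13 (LTED-A against LTED-B). Whether the replicate 3 libraries share a factor such as depth was not tested. The reported fits did not pair samples by number. With the replicate block the number of called members in SUM44 LTED-A against LTED-B was 0, and no other count of members changed. Of the 5 genes most like each member, 0 to 2 were also among the 5 by Spearman's rho. The median of the chromosome 11 neighbours moved with the window of 250 or 1000 kb in 11 of 30 instances. PLAAT5 at 3 to 31 counts in LTED libraries limits comparisons among the variants.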
